A study of Mus musculus with 6 samples.

Results

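S100 proteins and annexins were followed through 10 mouse genes, S100a4, S100a6, S100a10, S100a11, S100a13, Anxa1, Anxa2, Anxa4, Anxa5 and Anxa6, of 15964 genes named on the arrays. Every probe set whose annotated gene symbol was one of these was taken, which gave 25 probe sets. For 9 of the genes at least 1 probe set carried that symbol alone. S100a11 was represented only by a probe set that is also annotated to a pseudogene of S100a11 and to other genes, so its signal could not be assigned to S100a11 and is described apart.

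The study measured total RNA from cultured CD8+ T cells of female P14 mice on the C57Bl/6 background, whose transgenic T cell receptor recognises a viral peptide. Spleen and lymph node cells were stimulated with that peptide for 2 days in both groups. Central memory (CM) cells were then grown in IL-15 for 7 days and sorted for a high level of a surface marker, and effector/effector memory (E/EM) cells were grown in IL-2 for 7 days and sorted for a low level of it. Each kind of cell was hybridised to 3 array types with different probe sets, SubA, SubB and SubC, on 1 array per kind and type. No replicate arrays were present, so no difference below could be tested, and it is not stated if 1 RNA was used for all arrays of a kind or how many mice were pooled. Both kinds of cells were raised in culture and are named for memory subsets in the labels. In such bulk samples, fewer cells with a transcript and less transcript per cell cannot be told apart.

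S100 proteins are small calcium-binding proteins with paired EF-hand motifs that mostly act as dimers by binding other proteins. Annexins bind acidic membrane phospholipids when calcium rises and link membranes to the actin cytoskeleton. The families meet in complexes, best known that of the S100A10 dimer with annexin A2 and that of S100A11 with annexin A1. In CD8+ T cells several of these genes are known to be more active in antigen-experienced than in naive cells.

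A signal was taken as measured above a floor set from bacterial control probe sets, with the level 31.28 for SubA, 88.12 for SubB and 194.34 for SubC. Every ratio sets the CM signal over the E/EM signal and is given as a log2 value, below 0 where the signal was lower in CM cells. A gene's ratio is the mean over its probe sets above the floor on both arrays. The SD given with it is over probe sets, not over replicate cultures, and is left out for genes with 1 such probe set. On every array 22 mouse control probe sets common to the 3 array types were measured, and the ratio of 1 control spanned a median of 0.51 and at most 1.04 over the array types. Since it is not stated if the array types shared 1 RNA, this span may hold more than technical spread. It is not a measure of the spread between cultures. An actin control had a log2 ratio of -0.05 on SubA, -0.12 on SubB and 0.30 on SubC. An 18S RNA control had -0.42 on SubA, -0.23 on SubB and -0.90 on SubC. A transferrin receptor control had 0.68 on SubA, 0.97 on SubB and 1.46 on SubC. Most of the 22 controls lay below 0 on SubA and SubB, while on SubC more lay above 0 than below. How far this lean enters the members' ratios was not tested.

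Promoter sequence is shown for 4 of the genes, because 2 of them are close neighbours in the S100 cluster with unequal ratios and the other 2 are annexins with unequal ratios. S100a4 and Anxa1 had the lowest ratios of the members with a probe set of their own, and S100a6 and Anxa2 had -0.19 and -0.16. The sequences come from RefSeq, assembly GRCm38.p6, and cover the 250 bases before the annotated transcription start, written 5′ to 3′ on the strand of the gene. They lie at chr3:90603520-90603769 (plus strand) for S100a4, at chr3:90612644-90612893 (plus strand) for S100a6, at chr19:20390672-20390921 (minus strand) for Anxa1 and at chr9:69453433-69453682 (plus strand) for Anxa2. Capitals mark the 3 motifs that were searched on both strands, the TATA box TATAAA, the GC box GGGCGG and the AP-1 site TGANTCA.
S100a4: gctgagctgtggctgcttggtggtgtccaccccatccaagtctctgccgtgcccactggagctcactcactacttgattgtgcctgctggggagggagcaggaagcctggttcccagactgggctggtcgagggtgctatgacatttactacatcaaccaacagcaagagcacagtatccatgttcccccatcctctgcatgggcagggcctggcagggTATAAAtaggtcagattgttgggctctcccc
S100a6: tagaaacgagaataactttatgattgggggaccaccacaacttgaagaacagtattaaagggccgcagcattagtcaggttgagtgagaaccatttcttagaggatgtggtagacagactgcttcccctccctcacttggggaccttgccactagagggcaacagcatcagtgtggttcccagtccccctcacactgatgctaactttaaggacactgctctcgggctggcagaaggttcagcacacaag
Anxa1: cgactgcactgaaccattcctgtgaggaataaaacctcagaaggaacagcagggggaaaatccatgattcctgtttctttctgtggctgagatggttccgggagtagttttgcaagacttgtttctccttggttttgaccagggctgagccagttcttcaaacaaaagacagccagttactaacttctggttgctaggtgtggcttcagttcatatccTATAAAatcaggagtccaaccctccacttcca
Anxa2: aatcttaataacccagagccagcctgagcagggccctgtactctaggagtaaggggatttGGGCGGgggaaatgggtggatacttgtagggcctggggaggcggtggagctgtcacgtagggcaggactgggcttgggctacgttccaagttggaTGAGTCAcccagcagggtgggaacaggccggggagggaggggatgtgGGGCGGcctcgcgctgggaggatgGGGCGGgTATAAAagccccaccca

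The S100a4 promoter holds TATAAA beginning 31 bases before the start, and that of Anxa1 holds it beginning 32 bases before. Anxa2 has TATAAA beginning 17 bases before the start, 3 copies of GGGCGG and 1 copy of TGANTCA. The window of S100a6 holds none of these letters. The table had entries for 8 of the 10 members, 9 entries in all, and no motif match overlapped another. TATAAA was found in 3 of the 9 entries, those of S100a4, Anxa1 and Anxa2, and in 12.4% of 32851 promoters of the same length. GGGCGG was found in 2 entries, those of S100a11 and Anxa2, against 32.7% of all promoters, and TGANTCA in the same 2 entries, against 6.75%. These are matches of letters only.

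None of the 9 genes with a probe set of their own reached a 2-fold difference in either direction, where 5.61% of 10946 named genes with a ratio were at least 2-fold lower in CM cells and 2.73% at least 2-fold higher. With so few genes, a count of 0 is near what that background gives. Of the 9 genes, 6 had a ratio below 0 and 3 above 0, and their median was -0.16, beside a median of -0.0025 for all 10946 genes, 50.3% of which lay below 0. Without SubC the members' median was -0.29, and on SubA alone it was -0.19. The median of all genes was not taken in these 2 settings. Anxa1 was the closest to 2-fold, 1.96-fold lower in CM cells. It was also the only gene at least 1.5-fold lower, as were 13.9% of all genes, and 0 were at least 1.5-fold higher, as were 10.1%. At 3-fold the shares of all genes were 1.54% lower and 0.557% higher. Of the 25 probe sets, 22 were above the floor on both arrays, 1 in CM cells only, and 2 on neither array. Of the 22, 1 was at least 2-fold lower in CM cells and 0 at least 2-fold higher. Among all measured SubA probe sets, 4.3% were at least 2-fold lower in CM cells and 2.31% at least 2-fold higher. The same shares for SubB were 6.23% lower and 3.46% higher, and for SubC 8.06% lower and 7.33% higher.

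**Figure D1:**
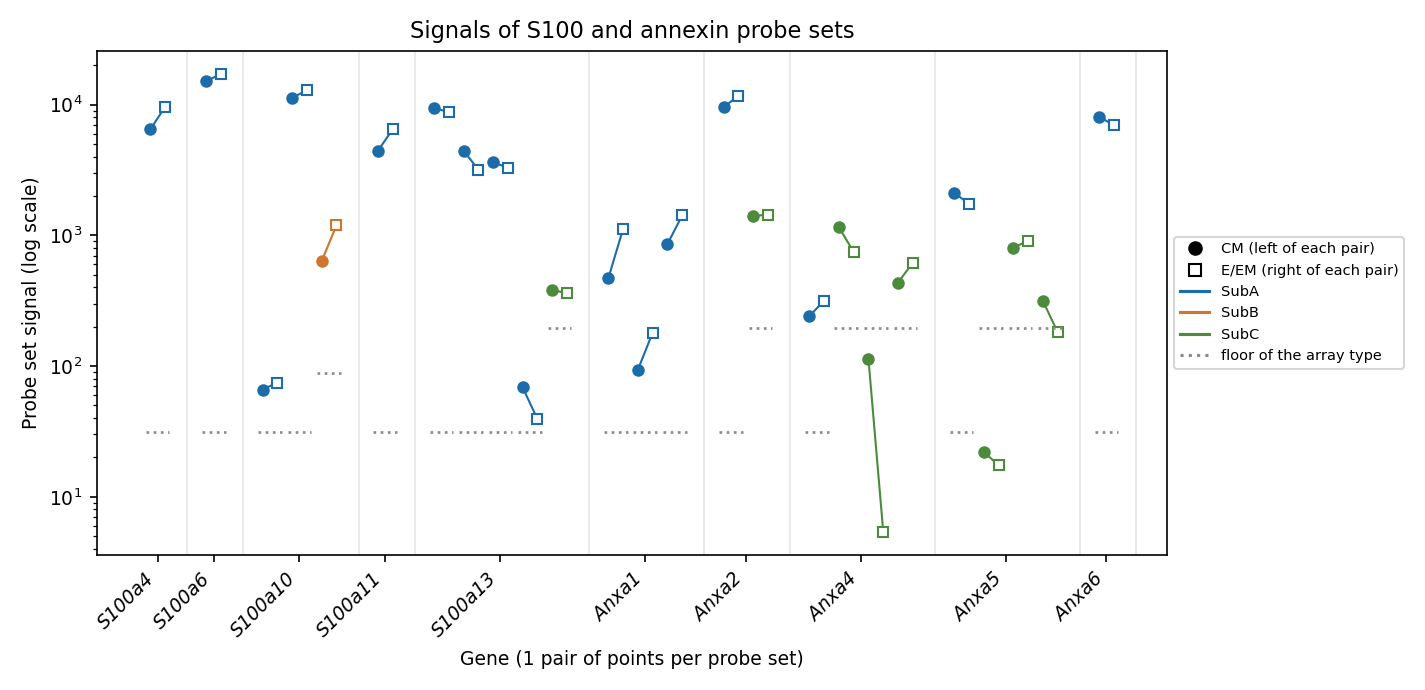
Signal of each of the 25 probe sets of the 10 genes on a log axis, with CM cells (filled circle, left) joined to E/EM cells (open square, right). Colours give the array type, dotted lines its floor, and there is 1 array per point. Most pairs are nearly level, the 3 Anxa1 pairs climb towards E/EM cells, and the steepest pair, of Anxa4, lies under its floor.

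S100a4 encodes a protein that binds non-muscle myosin and acts in cell motility. Its single probe set (99051_at, SubA) had a signal of 6442.2 in CM cells, against 9570.2 in E/EM cells. The log2 ratio was -0.57, a signal 1.49-fold lower in CM cells, and 14.4% of all measured genes had a lower ratio. The value rests on 1 probe set, and its size lies between the median and the widest span of a control over array types. That span is not a measure of the error of a ratio from SubA alone.

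S100a6, or calcyclin, is an S100 protein that binds CACYBP and annexins. Its probe set (92770_at, SubA) had 15071.6 in CM cells, against 17222.7 in E/EM cells, of which the weaker was 482 times the floor. The log2 ratio was -0.19, a 1.14-fold lower signal in CM cells, and rests on 1 probe set.

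S100a10 encodes the p11 protein, an S100 protein that no longer needs calcium and that holds annexin A2 in a complex at the membrane. The brightest probe set (92539_at, SubA) had signals of 11259.8 in CM cells and 12863.4 in E/EM cells, a log2 ratio of -0.19. A dim SubA probe set (162340_r_at) had 66.1 in CM cells, against 74.6 in E/EM cells, a ratio of -0.17. The SubB probe set (108902_at) stood apart from both, with 635.7 in CM cells and 1188.4 in E/EM cells, a ratio of -0.90. All 3 were lower in CM cells, but by unequal amounts, and their mean of -0.42 ± 0.42 (SD, 3 probe sets) is no larger than its spread. On SubA alone the mean was -0.18, so the size of the difference rests on the SubB probe set.

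S100a13 encodes a protein that takes part in the release of signal-less proteins such as fibroblast growth factor 1. It was the only S100 member with a ratio above 0. Its brightest probe set (100959_at, SubA) had 9420.5 in CM cells, against 8744.5 in E/EM cells. On the other bright SubA probe sets the signals were 4440.4 in CM cells and 3182 in E/EM cells (100960_g_at), and 3613 in CM cells and 3290.2 in E/EM cells (161121_f_at). A dim one (161862_i_at) had 68.6 in CM cells, against 39.3 in E/EM cells, which is only 1.26 times the floor. The SubC probe set (169016_at) had 382.8 in CM cells, against 359.7 in E/EM cells. All 5 probe sets were higher in CM cells, with ratios between 0.09 and 0.80. Their mean was 0.32 ± 0.31 (SD, 5 probe sets), but only 0.10 without the probe sets whose names mark them as possibly shared, and 0.11 for the brightest.

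The probe set that names S100a11, a partner of annexin A1, together with its pseudogene and other genes (98600_at, SubA) had 4414.4 in CM cells, against 6452.5 in E/EM cells. The ratio was -0.55, a 1.46-fold lower signal in CM cells. How much of it comes from S100a11 itself was not tested.

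Anxa1 encodes annexin A1, a glucocorticoid-induced protein that limits inflammation through formyl peptide receptors and is also made by T cells. All 3 of its probe sets, all on SubA, were lower in CM cells. They had signals of 470.4 in CM cells and 1120.6 in E/EM cells (161703_f_at), 93.8 in CM cells and 180.2 in E/EM cells (93037_i_at), and 858 in CM cells and 1421.1 in E/EM cells (93038_f_at). The ratios were -1.25, -0.94 and -0.73, with a mean of -0.97 ± 0.26 (SD, 3 probe sets), and 5.90% of all measured genes had a lower ratio. The first is the only probe set of any member past 2-fold, as were 4.3% of the 7926 measured SubA probe sets. The mean is larger than the spread over probe sets. Its size is below the widest span of a control over array types, 1.04. That span is not a measure of the error of a ratio from SubA alone. All 3 probe sets carry a suffix that marks possible sharing with related sequences, so Anxa1 has no value without such probe sets.

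Anxa2 encodes annexin A2, which organises membrane and actin together with S100A10. The SubA probe set (100569_at) had 9541.2 in CM cells, against 11666.9 in E/EM cells, and the SubC probe set (141050_at) had 1402.1 in CM cells, against 1439.4 in E/EM cells. Both ratios were below 0, -0.29 and -0.04, and the mean of -0.16 ± 0.18 (SD, 2 probe sets) was within the spread. Anxa2 and its partner S100a10 each had 1 bright SubA probe set, and both of these differed by less than 1.5-fold.

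The probe sets of Anxa4, which encodes a membrane-binding annexin best studied in epithelia, disagreed. On SubA (100584_at) the signal was 240.4 in CM cells, against 316.9 in E/EM cells. On SubC one probe set (168073_at) had 433.8 in CM cells and 618.8 in E/EM cells, and another (167230_f_at) had 1153.9 in CM cells and 744.6 in E/EM cells. The ratios were -0.40, -0.51 and 0.63, so the mean of -0.09 ± 0.63 (SD, 3 probe sets) has no settled direction. The remaining probe set (168072_i_at, SubC) had 113.2 in CM cells and 5.4 in E/EM cells, both under the floor, and gave no ratio.

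Anxa5 encodes annexin A5, which binds phosphatidylserine exposed on dying cells and is used to stain them. Its SubA probe set (93083_at) had 2121.4 in CM cells, against 1736.2 in E/EM cells, a ratio of 0.29. A SubC probe set (169667_f_at) ran the other way, with 802.3 in CM cells and 908.7 in E/EM cells, a ratio of -0.18. Another (170501_r_at, SubC) had 316.3 in CM cells and 181.5, under the floor, in E/EM cells, which makes it at least 1.63-fold higher in CM cells. The last (168693_at, SubC) was under the floor on both arrays, with 22.1 in CM cells and 17.4 in E/EM cells. The mean of 0.05 ± 0.33 (SD, 2 probe sets) is far within its spread.

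Anxa6 encodes the annexin with a duplicated core, which has been linked to membrane repair and T cell proliferation. Its single probe set (94304_at, SubA) had 8087.5 in CM cells, against 6936.3 in E/EM cells, a ratio of 0.22 and 1.17-fold higher in CM cells.

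**Figure D2:**
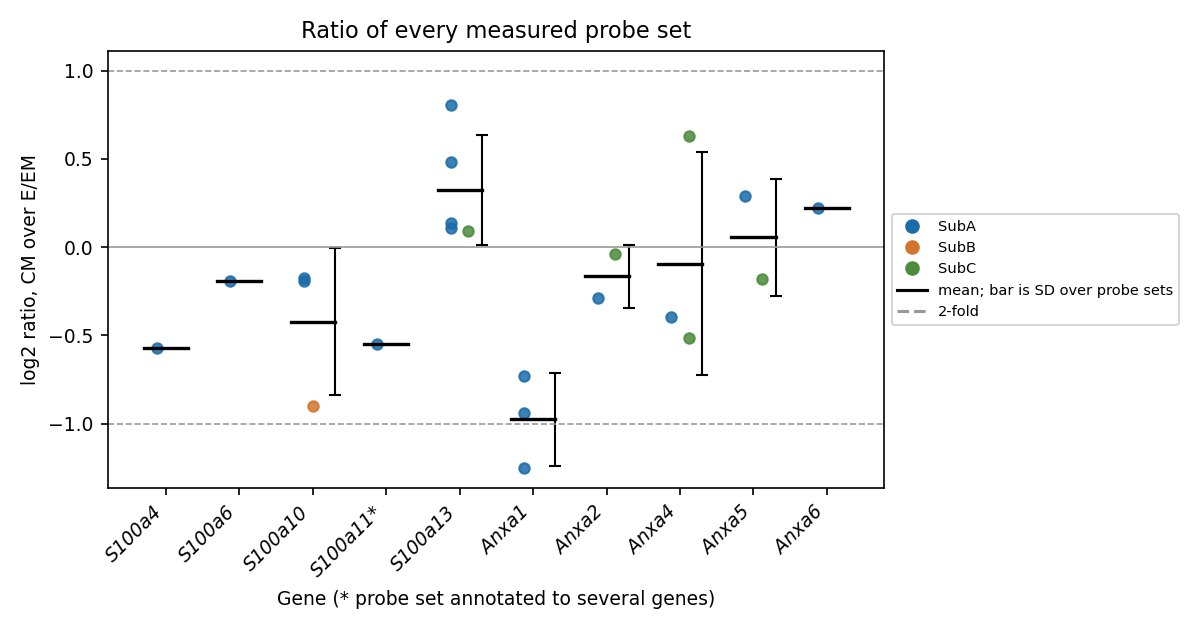
CM over E/EM ratio (log2) for the 22 probe sets above the floor on both arrays, by gene, coloured by array type. Lines are gene means, error bars the SD over probe sets, and dashed lines mark 2-fold. Anxa1 lies lowest, S100a13 lies above 0 on all 5 probe sets, and the probe sets of Anxa4 and Anxa5 fall on both sides of 0.

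Most S100 genes sit side by side on chromosome 3, and in the RefSeq gene order S100a1, S100a13, S100a14, S100a16, S100a3, S100a2, S100a4, S100a5 and S100a6 follow each other with no other protein-coding gene between them. S100a11 and S100a10 are neighbours of each other, with 54 further coding genes between S100a7l2 and S100a11. Some neighbours had like ratios and others did not. S100a1 and S100a13 are adjacent and had -0.52 and 0.32, and the order continued with -0.05 for S100a14 and 0.61 for S100a16. S100a3, S100a2 and S100a4, which follow, had -0.79, -0.61 and -0.57, and S100a6 had -0.19. No ratio was had for S100a5, S100a8, S100a9 and S100a7l2, nor for S100a7a, which had no probe set. The values of S100a1, S100a2, S100a3 and S100a16 each rest on 1 probe set of modest signal, so this order of values is a description. Those used for S100a1 (95453_f_at) and S100a16 (167148_f_at) carry a suffix that marks possible sharing, as does the brighter probe set of S100a14 (162428_i_at). Other S100a1 probe sets were under the floor, with 10.2 in CM cells and 4.3 in E/EM cells (95454_at), and 1.7 and 8 (95452_i_at). So was another of S100a3 (101052_g_at), with 3.2 in CM cells and 24.8 in E/EM cells.

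**Figure D3:**
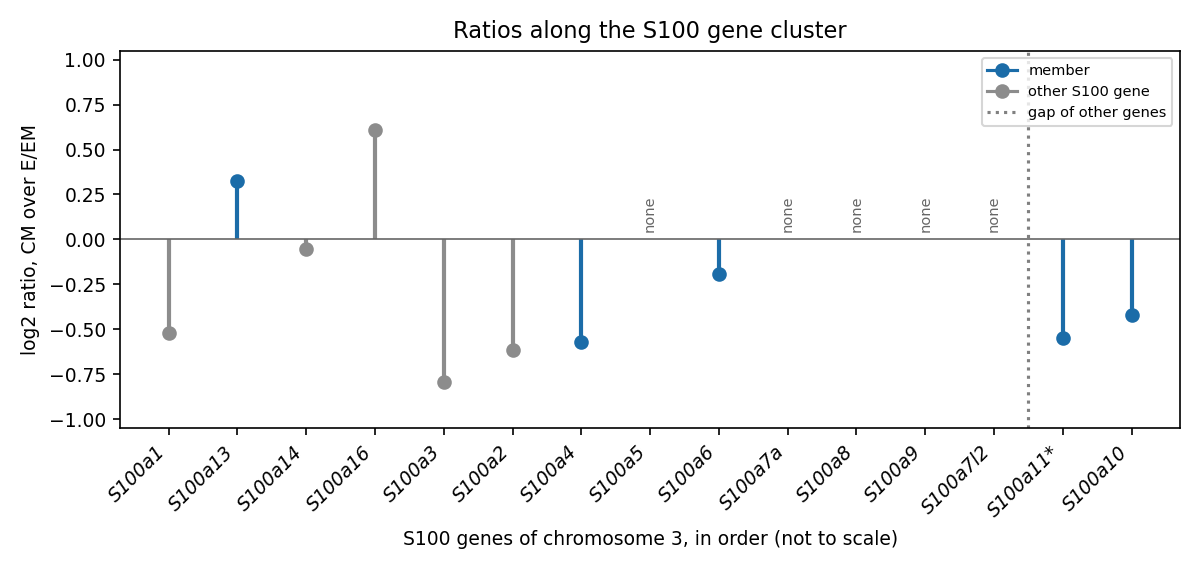
CM over E/EM ratio (log2) for the S100 genes of chromosome 3 in their order along it, not to scale. Blue marks members, grey other S100 genes, the asterisk the probe set annotated to several genes, and the dotted line the gap before S100a11. Ratios lie on both sides of 0 at the left end and below 0 from S100a3 to S100a6, except S100a5, which had no ratio.

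Among the further S100 genes, 11 of 13 looked for had a probe set, counting S100pbp, which encodes a binding protein of an S100 protein. A ratio was had for 6 of them, S100pbp included, 4 below 0 and 2 above 0, with a median of -0.29 and 0 past 2-fold. With S100pbp left out, the middle value was -0.52, that of S100a1. S100a3 had signals of 68.6 in CM cells and 119 in E/EM cells, S100a2 had 216.6 in CM cells and 331.7 in E/EM cells, and S100a1 had 218.5 in CM cells and 313.3 in E/EM cells. S100a16 had 759.7 in CM cells, against 498.1 in E/EM cells, on SubC, while its SubA probe set was far under the floor. S100a14 and S100pbp had ratios of -0.05 ± 0.12 (SD, 2 probe sets) and 0.32. The weaker signal of the dimmer S100a14 probe set (104594_at) was only 1.08 times the floor. S100a5 had 31, just under the floor, in CM cells and 45.8 in E/EM cells. S100b and S100g were under the floor on all their probe sets, and so was the SubC probe set of S100a7l2, with 17.5 in CM cells and 9.6 in E/EM cells.

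S100a8 and S100a9, which form calprotectin in neutrophils and monocytes, were under the floor everywhere. S100a8 had 25.6 in CM cells and 23.3 in E/EM cells, and S100a9 had 9.7 in CM cells and 3 in E/EM cells. Of 15 myeloid marker genes with a probe set, 8 had neither a ratio nor a bound, and the summed signal of the 21 SubA probe sets was 3024.7 in CM cells and 2525.7 in E/EM cells, and that of the 3 SubC probe sets 324.6 in CM cells and 152.5 in E/EM cells. Most of the SubA sum was Ctss, a protease also found outside myeloid cells, with 2362.3 in CM cells and 1615.1 in E/EM cells. Of the other 6 myeloid markers with a ratio, Cd68 was past 2-fold, with 89.4 in CM cells and 199.5 in E/EM cells, and Cd14 had 88.2 in CM cells and 136.6 in E/EM cells. Over the 7 myeloid markers with a ratio, 5 lay below 0 and 2 above 0, with a median of -0.50. Camp and Csf3r had -0.58 and -0.50, while Elane had 0.22 on SubA and was above the floor on SubC in CM cells only, with 201.6 in CM cells and 55.2 in E/EM cells. Myeloid cells also express Anxa1, and the part of such cells in its ratio was not tested. Markers of the labelled cell type were strong, with Cd8a at 5882.7 in CM cells and 5133.8 in E/EM cells and Cd3e at 6545.6 in CM cells and 7095.9 in E/EM cells. None of the 8 T cell genes with a ratio passed 2-fold. Of these, 4 lay below 0 and 4 above 0, from -0.72 for Cd3g to 0.50 for Cd8b1. B cell, dendritic cell and stromal markers had summed SubA signals of 541, 892.1 and 775.2 in CM cells. In E/EM cells these sums were 526.9, 1284.4 and 806.1. On SubC the dendritic cell sum was 441.9 in CM cells and 276.4 in E/EM cells. The 1 dendritic cell probe set of SubB, of H2-Eb1, had 54.4 in CM cells and 19.4 in E/EM cells, both under the floor. The 1 stromal SubC probe set had 45.8, under the floor, in CM cells and 213.2 in E/EM cells. Of 7 dendritic cell genes with a ratio, 2, H2-Ab1 and H2-Eb1, were at least 2-fold lower in CM cells and 1, Itgax, at least 2-fold higher. Of all genes with a ratio, 5.61% were that much lower and 2.73% that much higher.

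Among the further annexin genes 6 of 7 looked for had a probe set of their own, and 2 had a ratio. Anxa9, an annexin known from epithelia, had the largest difference of either family. Its single SubB probe set (163758_at) had 206.9 in CM cells, against 749.6 in E/EM cells, a ratio of -1.86, where 6.23% of 7518 SubB probe sets were at least 2-fold lower in CM cells. The weaker signal was 2.35 times the floor. Anxa7, an annexin that promotes membrane fusion, was lower in CM cells on both measured probe sets, with 118.4 in CM cells and 156 in E/EM cells on SubA and 292 in CM cells and 519.4 in E/EM cells on SubB. Its mean ratio was -0.61 ± 0.31 (SD, 2 probe sets). Anxa13 was above the floor in E/EM cells only, with 60.5 in CM cells and 110.8 in E/EM cells. Anxa3, Anxa8 and Anxa10 were under the floor, and Anxa11 shared its probe set with other genes, with 2966.6 in CM cells and 3089.8 in E/EM cells.

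Of 17 genes with a probe set that encode partners or receptors of S100 proteins and annexins, 10 had a ratio, 8 above 0 and 2 below 0, where 50.3% of all measured genes lay below 0. Their median was 0.26 and 0 passed 2-fold. A further 3 had a bound only, Plaur above the floor in CM cells and Plau and Syt1 in E/EM cells, and 4 had neither. Ahnak, the giant scaffold held at the membrane by annexin A2 and S100A10, had 5928.2 in CM cells and 4897.3 in E/EM cells on SubA and a mean ratio of 0.40 ± 0.18 (SD, 2 probe sets). Myh9, the non-muscle myosin heavy chain bound by S100A4, had 8411.5 in CM cells and 7307.5 in E/EM cells on its brightest probe set and a mean ratio of 0.37 ± 0.24 (SD, 3 probe sets). All 3 Myh9 probe sets and both measured Ahnak probe sets were higher in CM cells. Pdcd6, the calcium sensor that binds annexins A7 and A11, had 0.35 ± 0.37 (SD, 2 probe sets). Plat, tissue plasminogen activator, had 90.2 in CM cells and 53.3 in E/EM cells on SubA, a ratio of 0.76, while a SubC probe set had 39.4, under the floor, in CM cells and 209.3 in E/EM cells, so the direction of Plat is not settled. Fpr2, a formyl peptide receptor for annexin A1, was under the floor in both kinds of cells.

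Cytoskeletal and galectin genes that often accompany S100a4 and Anxa2 in effector T cells were mixed. Of 16 with a ratio, 7 lay below 0 and 9 above 0, and the median was 0.0042. Of the 16, 1 was at least 2-fold lower in CM cells and 2 at least 2-fold higher. Among all genes with a ratio the shares were 5.61% lower and 2.73% higher. Lgals3, encoding galectin-3, was lower in CM cells on both array types, with 3642.3 in CM cells and 8645.4 in E/EM cells on SubA and 1080.1 in CM cells and 1759.5 in E/EM cells on SubC. Its mean ratio of -0.98 ± 0.38 (SD, 2 probe sets) was close to that of Anxa1. Lgals1, encoding galectin-1, had 18358.1 in CM cells and 18017.1 in E/EM cells on its brightest probe set, and the thymosins Tmsb4x and Tmsb10 had ratios of -0.02 and 0.01. Capg had a mean ratio of -0.89 ± 1.01 (SD, 2 probe sets), with 651.6 in CM cells and 1982.3 in E/EM cells on its brightest. Vim had -0.50 from signals close to the floor.

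Emp1, a membrane protein gene, had 229.4 in CM cells, against 2824.5 in E/EM cells, a ratio of -3.62 that rests on 1 probe set (97426_at, SubA). Higher in CM cells were Actn1, encoding the actin crosslinker alpha-actinin, at 1.33 ± 0.18 (SD, 3 probe sets), and Crip1, a LIM-domain protein gene, at 1.06 with 11391 in CM cells and 5477.6 in E/EM cells. All 3 measured Actn1 probe sets were past 2-fold, among them the brightest with 2149.6 in CM cells and 740.8 in E/EM cells.

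Other calcium-binding genes also lay around 0, with a median of 0.07 over 20 genes, 1 at least 2-fold lower in CM cells and 1 at least 2-fold higher. The shares of all genes with a ratio were 5.61% lower and 2.73% higher. Capn2, a calpain protease, had 1165.1 in CM cells, against 2685.6 in E/EM cells, on SubA, a ratio of -1.20, while a SubC probe set above the floor in CM cells only had 308 in CM cells and 143.5 in E/EM cells. Cast, encoding the calpain inhibitor calpastatin, had 0.67 ± 0.56 (SD, 4 probe sets), higher in CM cells on 3 of the 4. Esyt1, a calcium-dependent membrane tether, had 0.74 ± 0.61 (SD, 3 probe sets), all higher in CM cells. Calm2, a calmodulin gene, had 1.14 from weak signals of 110.1 in CM cells and 49.9 in E/EM cells.

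**Figure D4:**
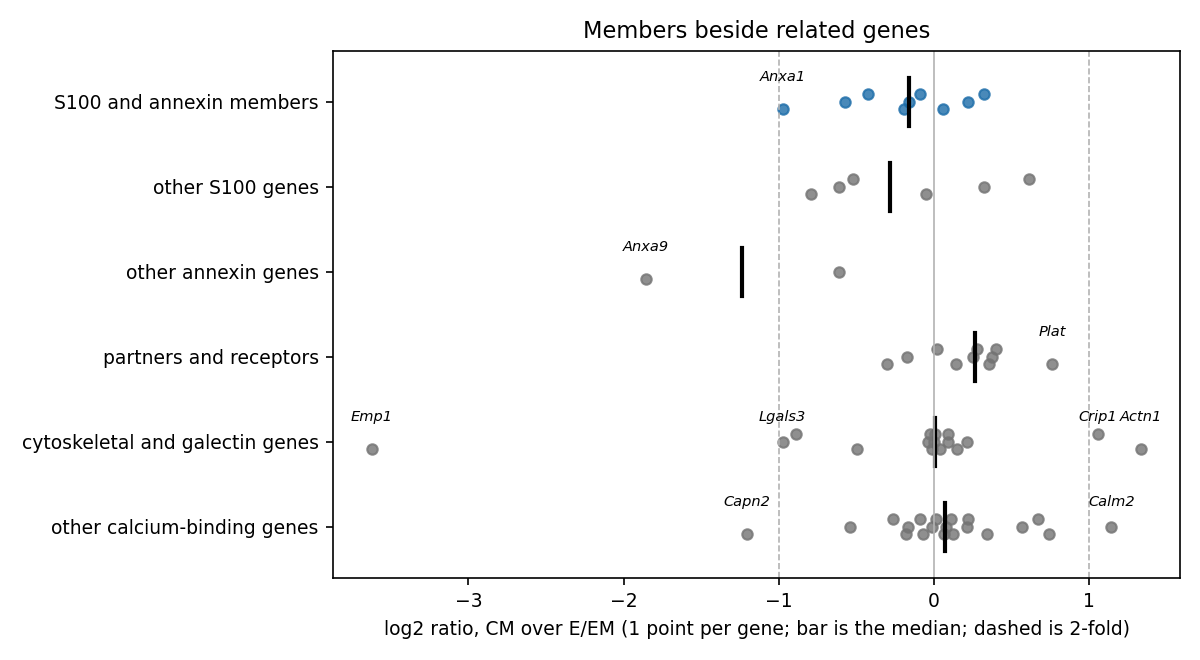
CM over E/EM ratio (log2), 1 point per gene with a ratio, for the 9 members with a probe set of their own (blue, top) and the 5 lists of related genes (grey). Bars are list medians and dashed lines mark 2-fold. No member lies past 2-fold, and the medians run from -1.24 for the 2 other annexins to 0.26 for the 10 partners and receptors.

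**Figure D5:**
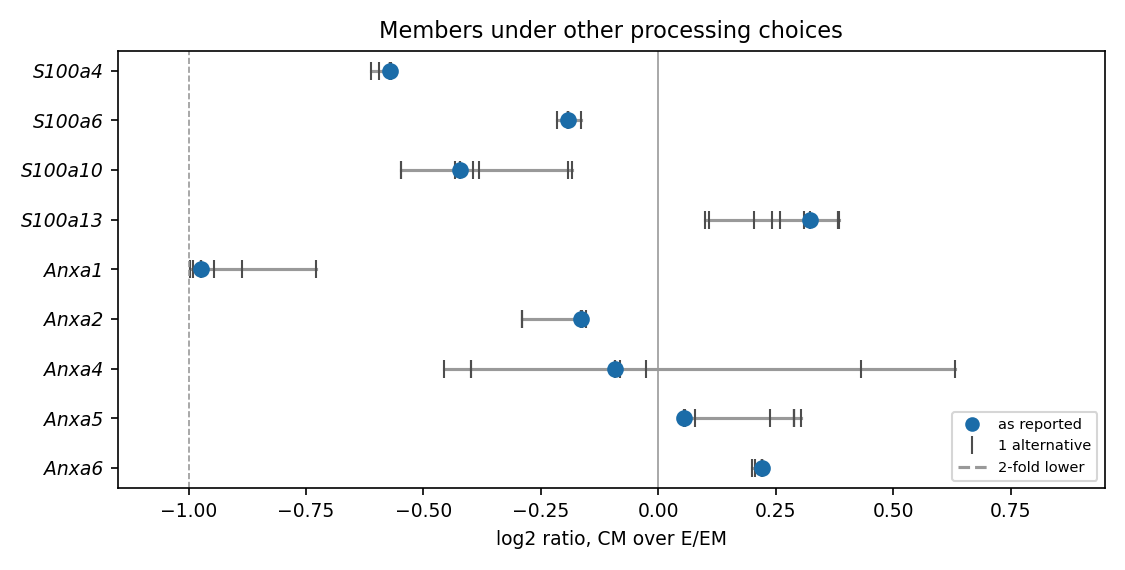
Log2 ratio of the 9 members under other processing choices, where the blue point is the reported value and each tick 1 alternative. The ticks of Anxa4 run from -0.46 to 0.63, on both sides of 0, and those of the other 8 genes stay on the side of the reported value.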

How the data were processed

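Total RNA of 2 kinds of cultured CD8+ T cells was measured on 3 array types, 1 array each. The deposited tables, 1 for each array type, hold probe set intensities on a linear scale. The authors' steps up to these intensities are not stated in the labels or tables. Their mean without the lowest and highest 2% was between 500.1 and 500.3 on every array and differed within a table by at most 0.0086%, so they were used as deposited. Symbols were those of the GEO platform annotation, where 10855, 10603 and 7739 probe sets of SubA, SubB and SubC had 1 symbol. A genome build of the probe sets is not named, so their positions are not given.

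For the floor, the 90th percentile over 15 bacterial poly-A control probe sets was taken on both arrays of a table and the higher kept. Between 47.1% and 69.1% of an array's probe sets exceeded it, fewest on SubC. Ratios, gene means and SDs were computed in Python 3.11.15 with pandas and checked on simulated data. With 1 array per group no test was made, and genes were counted by a 2-fold rule. The number of arrays limits the precision. The members and all lists were chosen with earlier results of these data known. Named were all members and other family genes, and from each further list up to 4 genes with the largest ratios and those past 2-fold. Genes named beyond that (Lgals1, Tmsb4x, Tmsb10, Capg, Vim, Fpr2, Plau, Plaur, Syt1, Csf3r, Elane, Cd8a, Cd3e) were picked after their values were seen. In the closing text, 12 alternatives are compared with the reported values, and 1 further alternative for S100a11 was added after seeing the data.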

Additional observations from a re-analysis of the deposited data

How the results depend on the processing

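The count of members at least 2-fold lower in CM cells was 0 under the 10 alternatives that changed the signals, floor, probe sets or array types. It was also 0 under a 3-fold rule and with the S100a11 probe set counted, which was added after seeing the data. Those 2 outcomes were fixed in advance by the reported ratios and add nothing. Anxa1, the member closest to 2-fold, kept its reported ratio of -0.97 with the floor halved or doubled, on SubA alone and without SubC. All its probe sets are on SubA and lay above the doubled floor, so those settings could not move it. Centring each table on its median brought it to -0.997, just short of 2-fold lower. A 1.5-fold rule gave 1, Anxa1, against a background of 13.9% of genes. The count at least 2-fold higher was 0 throughout. The median over the members was between -0.29, without SubC, and -0.15, after quantile normalization. Anxa1 had ratios between -0.997 and -0.73, S100a4 between -0.61 and -0.57, S100a10 between -0.55 and -0.18, S100a13 between 0.10 and 0.38, and Anxa5 between 0.05 and 0.30. Anxa4 was the only member to change sign, to 0.63 for its brightest probe set and to 0.43 with no floor and 32 added to both signals. In both settings SubC probe sets above 0 weigh more by construction. Anxa1 had no value without probe sets marked as shared. No paired analysis was possible because each kind of cell had 1 array per array type. Signals near the floor, as for S100a3 and Calm2, give less certain ratios.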
